A study of Mus musculus with 4 samples.

Results

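Toll-like receptors are the membrane sensors with which myeloid cells recognise parts of microbes. The set described here is 10 genes, picked by name from the 51826 features of the deposited table: the receptors Tlr1, Tlr2, Tlr4, Tlr6, Tlr7, Tlr8, Tlr9 and Tlr13, the co-receptor Cd14 and the adaptor Myd88. They were measured in mouse bone marrow cells that were negative for lineage markers, positive for c-kit and transduced with MLL-AF9, a fusion oncogene that drives acute myeloid leukaemia. There were 2 samples with a knockout of Elovl6 (Elovl6 KO), an enzyme that lengthens fatty acids, and 2 wild-type (WT) samples. All 4 carried MLL-AF9 and are labelled week 2, so each KO sample is compared with a transduced WT sample and not with normal marrow. The labels do not give the strain, age or sex of the mice, how the knockout was made, or whether each replicate came from its own animal or culture. The p-values therefore cover the spread of these 4 samples alone, and that spread may be technical.

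Receptors of this family join as pairs, bind a microbial molecule through leucine-rich repeats, and pass the signal through a cytoplasmic TIR domain. Tlr1, Tlr2, Tlr4 and Tlr6 act mainly at the cell surface. Tlr2 pairs with Tlr1 or Tlr6 to sense bacterial lipoproteins, and Tlr4 senses lipopolysaccharide with the help of Cd14. Tlr7, Tlr8, Tlr9 and Tlr13 act in endosomes and sense nucleic acids. Myd88 carries the signal of all of these receptors towards NF-kB. The family is best known in monocytes, macrophages and dendritic cells, and it is also found on progenitors.

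The libraries held 8986502 and 9699502 gene counts in KO and 9883596 and 11941588 in WT. Elovl6 had 17 and 34 counts in KO and 1290 and 1673 in WT. The progenitor genes Kit, Myb, Hoxa9 and Meis1 were present in all 4 libraries, with Kit at 139 and 111 CPM (counts relative to the scaled library size) in KO and at 140 and 131 CPM in WT. All 10 genes of the set passed the filter on low counts, and they were tested in 1 fit across 11738 genes with edgeR's quasi-likelihood test. RNA was measured in bulk, so a change in the number of cells of a type cannot be told apart from a change in RNA per cell.

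Exon counts of Tlr13 and Tlr2 rose in KO cells, and none of the other 8 genes passed an adjusted p of 0.05 in either direction. The 2 of 10 genes called stand beside 2.8% of all genes tested (1.82% higher and 0.98% lower in KO). All 10 log2 fold changes were positive, against 49.3% of all genes tested. Their median was 0.40, against -0.004 over all 11738 genes. In 6 of 10 both KO libraries lay above both WT libraries, as they did for 26.8% of all genes, and in none did both lie below, as they did for 27% of all genes. Since the genes were named with results of these data known, these shares are descriptions.

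**Figure D1:**
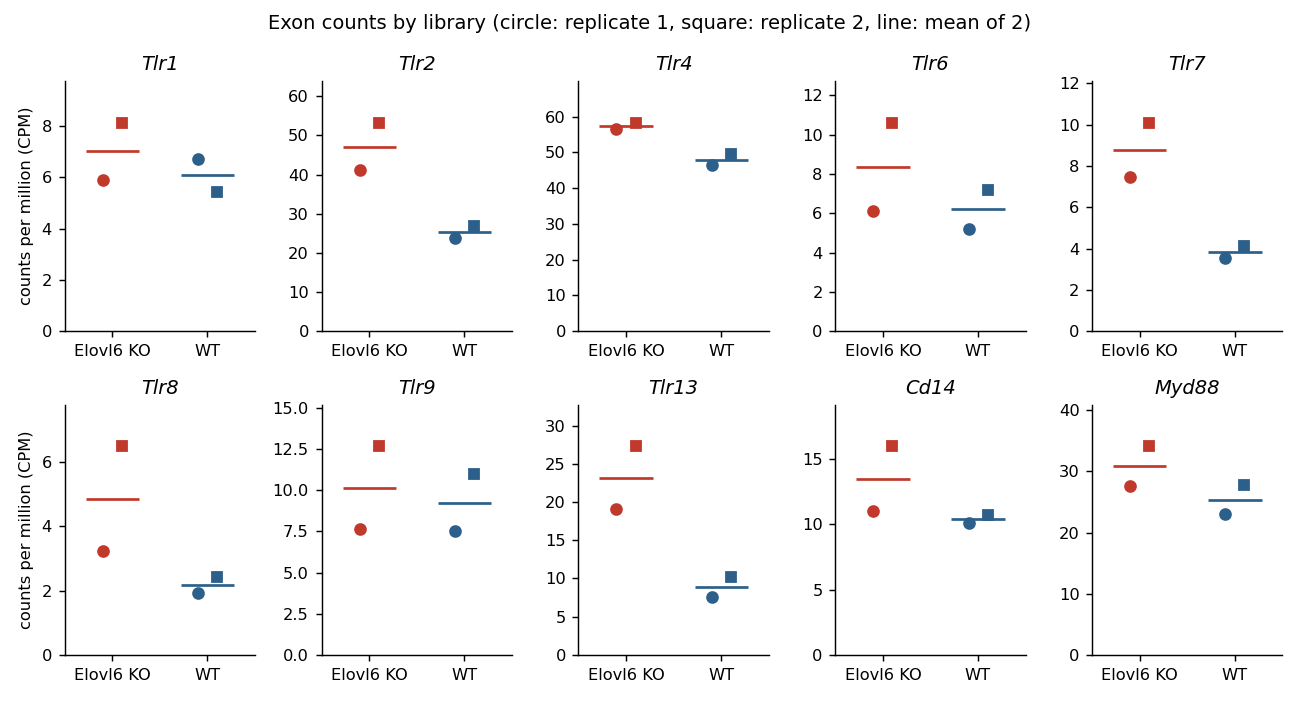
Exon level (CPM) in each library for the 10 genes, Elovl6 KO on the left and WT on the right of each panel, each panel with its own axis from 0. Circles are replicate 1, squares replicate 2 and lines the mean of 2. KO lies above WT without overlap for Tlr2, Tlr4, Tlr7, Tlr8, Tlr13 and Cd14, and the groups overlap for Tlr1, Tlr6, Tlr9 and Myd88.

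Tlr13, an endosomal receptor that in mice binds bacterial ribosomal RNA, changed most. It had 172 and 265 counts in KO and 74 and 121 in WT, or 19.1 and 27.3 CPM in KO and 7.54 and 10.1 CPM in WT. The lower KO library lay well above the higher WT library. The log2 fold change was 1.38 (SE 0.22, 95% interval 0.86 to 1.91), a 2.61-fold higher level (edgeR adjusted p = 0.0355). In mm10 the gene (ENSMUSG00000033777) spans 106143204 to 106160493 of chromosome X, plus strand, and its exons add up to 4060 bases. No other annotated gene overlaps it.

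Tlr2, the surface receptor for lipoproteins, had 369 and 517 counts in KO and 234 and 321 in WT. Scaled, this was 41.0 and 53.2 CPM in KO against 23.8 and 26.9 CPM in WT, again without overlap. Its log2 fold change was 0.89 (SE 0.15, 95% interval 0.55 to 1.24), a 1.86-fold higher level, with an adjusted p of 0.0361 (edgeR). Tlr2 (ENSMUSG00000027995) spans 83836272 to 83841767 of chromosome 3, minus strand, and shares that chromosome with Elovl6, which lies at 129532355 to 129638495.

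Both calls were lost without either WT library. Without WT replicate 1 the log2 fold change was 1.19 for Tlr13 and 0.81 for Tlr2 (edgeR adjusted p = 0.346 and 0.355), and without WT replicate 2 it was 1.62 and 0.98 (0.209 and 0.245). Those fits set 2 KO libraries against a single WT library that is assumed to vary like KO, and they called 14 and 6 genes in all. With KO replicate 1 left out the values were 1.61 for Tlr13 and 1.07 for Tlr2. They were 1.10 and 0.69 with KO replicate 2 left out. The latter fits hold a single KO library and take their spread from the WT pair. Replicates differed less in WT than in KO (chi-square per degree of freedom 4.42 and 6.54). Passing the threshold in a fit with 1 KO library therefore does not show that a call holds.

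The regions around the starts of these genes are shown for the pair that rose and for Tlr9, whose groups overlapped. RefSeq (GRCm38.p6, the build called mm10) gave windows of 300 bases, 250 before to 50 after an annotated start, for 7 of the 10 genes. Capitals mark matches, on either strand, to GAGGAA (the core bound by PU.1, a factor of the myeloid lineage), TTGCNNAA (C/EBP), TGANTCA (AP-1), TTTC, any 2 bases, TTTC (ISRE, bound by interferon regulatory factors) and GGGA, any base, TT, any base, CC (NF-kB). The last pattern was widened by 1 base after the windows had been read, so its match in Tlr2 is a description. The share of all windows with this pattern does not measure how unusual that match is.
Tlr13, chrX:106143025-106143324, plus strand: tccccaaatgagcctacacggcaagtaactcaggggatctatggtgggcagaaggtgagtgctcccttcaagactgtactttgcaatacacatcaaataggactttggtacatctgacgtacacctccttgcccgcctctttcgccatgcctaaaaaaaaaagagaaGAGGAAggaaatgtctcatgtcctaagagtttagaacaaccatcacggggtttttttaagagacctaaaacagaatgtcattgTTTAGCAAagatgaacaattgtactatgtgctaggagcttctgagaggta
Tlr2, chr3:83841559-83841858, minus strand: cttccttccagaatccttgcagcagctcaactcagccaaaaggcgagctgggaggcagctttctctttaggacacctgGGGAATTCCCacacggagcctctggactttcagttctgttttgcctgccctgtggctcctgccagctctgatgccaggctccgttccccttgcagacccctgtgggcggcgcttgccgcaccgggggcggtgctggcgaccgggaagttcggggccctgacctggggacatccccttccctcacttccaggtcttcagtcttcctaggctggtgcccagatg
Tlr9, chr9:106222348-106222647, plus strand: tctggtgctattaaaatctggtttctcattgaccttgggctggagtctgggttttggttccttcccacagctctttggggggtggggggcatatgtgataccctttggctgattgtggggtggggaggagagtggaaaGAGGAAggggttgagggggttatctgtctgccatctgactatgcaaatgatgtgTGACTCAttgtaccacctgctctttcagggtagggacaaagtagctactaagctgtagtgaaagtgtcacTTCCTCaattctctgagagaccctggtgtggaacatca
The Tlr13 window held 1 PU.1 match and 1 C/EBP match, which did not overlap. The Tlr2 window held 1 NF-kB match, GGGAATTCCC, and none of the other motifs. Tlr9 held 2 PU.1 matches and 1 AP-1 match. Over all 32851 windows, 28.3% held the PU.1 letters, 10.8% those of C/EBP, 7.81% AP-1, 3.44% ISRE and 1.2% NF-kB. Of the windows not printed, Tlr8 held 1 PU.1 match and 2 C/EBP matches, Myd88 held 1 ISRE match, and of 2 windows each, 1 of Tlr1 held a PU.1 match and 1 of Tlr6 a C/EBP match and 2 ISRE matches. No motif was shared by Tlr13 and Tlr2. A match is a run of letters and does not show that a factor binds.

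Tlr7 and Tlr8, neighbouring genes on the minus strand of chromosome X that encode endosomal receptors for single-stranded RNA, had fold changes near that of Tlr13 and missed the threshold. Tlr7 had 67 and 98 counts in KO and 35 and 49 in WT, or 7.45 and 10.1 CPM against 3.56 and 4.11 CPM. The KO libraries lay above the WT libraries, with a log2 fold change of 1.19 (SE 0.25, 95% interval 0.61 to 1.77; edgeR adjusted p = 0.0561). The value of Tlr7 was 1.39 with KO replicate 1 left out and 0.95 with KO replicate 2 left out. It was 1.09 without WT replicate 1 and 1.29 without WT replicate 2. Tlr8 had 29 and 63 counts in KO and 19 and 29 in WT, which is 3.22 and 6.49 CPM against 1.93 and 2.43 CPM. Its lower KO library was close to the higher WT library, and the log2 fold change of 1.15 (SE 0.40, 95% interval 0.21 to 2.09) had an adjusted p of 0.169 (edgeR). It was 0.55 with KO replicate 2 left out and 1.56 with KO replicate 1 left out. Tlr7 lies at 167304929 to 167330558 and Tlr8 at 167242696 to 167264329.

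Tlr7, Tlr8 and Tlr13 are all on chromosome X, so the sex of the cells and the chromosome as a whole were looked at beside them. Xist, the RNA of the inactive X, had 0 counts in all 4 libraries, where 3 counts equal 0.251 to 0.334 CPM. The Y-linked gene Ddx3y was at 60.7 and 59.1 CPM in KO and 75.0 and 69.7 CPM in WT. Uty, also Y-linked, was at 43.9 and 48.9 CPM in KO and 57.1 and 58.4 CPM in WT. Kdm5d, another, was at 49.8 and 60.7 CPM in KO and 72.5 and 68.0 CPM in WT. Y-linked Eif2s3y was at 45.9 and 59.3 CPM in KO and 33.4 and 2.68 CPM in WT. For Eif2s3y alone, WT replicate 2 stood apart from the rest. RNA of Y-linked genes was thus present in all 4 libraries. Of 358 X-linked genes tested, 5 were higher and 6 lower in KO past the threshold (edgeR), with a median log2 fold change of -0.02. Tlr13 is among the 5.

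Tlr9, the endosomal receptor for DNA rich in unmethylated CpG, had the smallest value of the set. It had 7.67 and 12.7 CPM in KO and 7.54 and 10.98 CPM in WT, and the groups overlapped. The log2 fold change was 0.13 (SE 0.29, 95% interval -0.55 to 0.82; edgeR adjusted p = 0.84), and it was -0.28 without KO replicate 2 and -0.11 without WT replicate 1. Tlr9 (ENSMUSG00000045322) spans 106222598 to 106226883 of chromosome 9, plus strand.

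The other surface receptors were higher by small amounts that missed the threshold. Tlr4, the receptor for lipopolysaccharide, had 56.6 and 58.3 CPM in KO and 46.3 and 49.6 CPM in WT. Its KO libraries were the closest pair of the set and the groups did not overlap, with a log2 fold change of 0.26 (SE 0.085, 95% interval 0.06 to 0.46; edgeR adjusted p = 0.152). Tlr1 had 5.89 and 8.13 CPM in KO and 6.72 and 5.45 CPM in WT, and Tlr6 had 6.12 and 10.6 CPM against 5.19 and 7.21 CPM. Both overlapped between the groups, with log2 fold changes of 0.21 (95% interval -0.37 to 0.80) and 0.43 (-0.30 to 1.16; adjusted p = 0.672 and 0.481, edgeR). Without KO replicate 2 they were -0.04 and -0.03. Tlr1 and Tlr6 are closely related neighbours on chromosome 5, and uniquely placed reads made up 81.5% to 92.9% of the exon reads of Tlr1 and 89.5% to 93.2% of those of Tlr6.

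Levels within the receptor pairs were set side by side, with no test of a difference. Per kilobase of exon, the level of Tlr2 was 4.001 and 3.35 times the sum of Tlr1 and Tlr6 in KO and 2.32 and 2.51 times in WT. The ratios did not overlap, but with 2 samples against 2 an exact permutation test cannot give a two-sided p under 0.333. The ratio of Tlr7 to Tlr8 overlapped, at 2.03 and 1.37 in KO and 1.62 and 1.48 in WT.

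Cd14 and Myd88, which serve several receptors, were not called. Cd14, which hands lipopolysaccharide to the Tlr4 complex, had 11.01 and 15.96 CPM in KO and 10.1 and 10.7 CPM in WT. Only KO replicate 2 stood clearly above WT, and the log2 fold change was 0.38 (SE 0.21, 95% interval -0.12 to 0.87; edgeR adjusted p = 0.358), or 0.08 without that library. Myd88 had 27.6 and 34.1 CPM in KO and 23.0 and 27.7 CPM in WT, which overlap by a narrow margin. Its log2 fold change was 0.28 (SE 0.15, 95% interval -0.07 to 0.62; edgeR adjusted p = 0.333).

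Myd88 (ENSMUSG00000032508, minus strand of chromosome 9, 119335934 to 119341411) is the one gene of the set that overlaps others. It lies within the annotated span of Slc22a14 on the same strand, and its start overlaps Acaa1a on the opposite strand. Uniquely placed reads were 45.9% and 51.3% of its exon reads in KO and 44.6% and 48.1% in WT. With all exon reads counted the log2 fold change was 0.21. Acaa1a had 255 and 246 counts in KO and 235 and 272 in WT, and Slc22a14 had none. The sources used here do not say if reads were counted by strand, so reads of Myd88 and Acaa1a may not be told apart.

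Levels can be compared between genes only per length, here as CPM per kilobase of exon. In KO the order ran from Tlr2 at 15.6 ± 2.86 through Myd88 (11.97 ± 1.78), Tlr4 (10.3 ± 0.21), Cd14 (8.58 ± 2.23) and Tlr13 (5.72 ± 1.42) to Tlr9 (2.92 ± 1.01), Tlr6 (2.24 ± 0.85), Tlr7 (2.15 ± 0.46), Tlr1 (2.10 ± 0.47) and Tlr8 (1.35 ± 0.64; CPM per kilobase, mean ± SD, n = 2 each). In WT it began with Myd88 (9.85 ± 1.30), Tlr4 (8.63 ± 0.42), Tlr2 (8.42 ± 0.72) and Cd14 (6.62 ± 0.29), and went on with Tlr9 (2.66 ± 0.70), Tlr13 (2.18 ± 0.45), Tlr1 (1.82 ± 0.27), Tlr6 (1.66 ± 0.38), Tlr7 (0.94 ± 0.09) and Tlr8 (0.61 ± 0.10). The libraries of Tlr2 and Tlr4 overlapped in WT and did not in KO. Tlr9, Tlr13, Tlr1 and Tlr6 overlapped from each to the next in WT. In KO, Tlr13 stood above Tlr9 in both libraries, and the 5 lowest genes overlapped from each to the next. Exon length was summed over all annotated exons of a gene. The counts used leave out many exon reads of Myd88. It had 248 and 331 counts in KO against 538 and 631 total exon reads. In WT it had 226 and 331 counts against 495 and 682 total exon reads. For Tlr2 both measures were equal, so the place of Myd88 below Tlr2 in KO depends on which reads are counted.

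Summed over the 4 endosomal receptors the level was 9.64 and 14.6 CPM per kilobase in KO and 5.44 and 7.34 in WT. Tlr13 made up 48.9% and 45.9% of this in KO and 34.1% and 34.0% in WT. The 4 surface receptors summed to 27.2 and 33.4 CPM per kilobase in KO and 19.6 and 21.4 in WT.

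**Figure D2:**
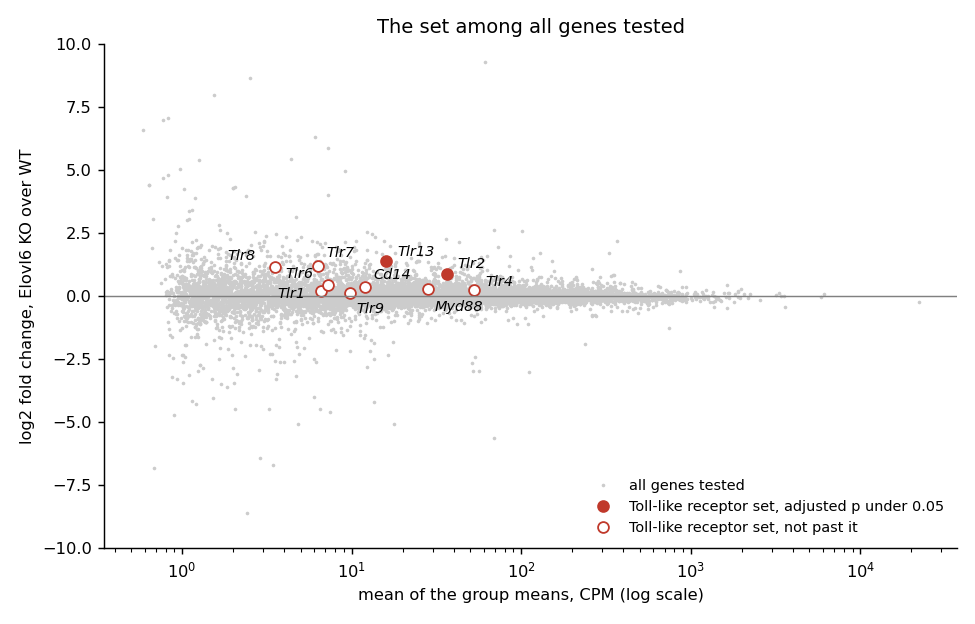
Exon log2 fold change (Elovl6 KO over WT) against the mean of the group means in CPM (log scale) for the 11738 genes tested, in grey, with the 10 genes of the set in red. Filled points passed an adjusted p of 0.05. All 10 lie above 0, with Tlr13 and Tlr2 past the threshold and Tlr7 and Tlr8 at like fold changes but lower counts.

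Uniquely placed intron reads gave another readout of the same libraries, closer to unspliced RNA. In this readout Tlr13 and Tlr4 rose, and none of the 7 genes with enough intron reads was lower past the threshold. The 2 of 7 genes called stand beside 4.81% of the 12359 genes tested (2.59% higher and 2.23% lower in KO). All 7 log2 fold changes were positive, against 51.1% of all genes. In 6 of 7 both KO libraries lay above both WT libraries, against 26.3% of all genes. The median log2 fold change of the 7 was 0.63, against 0.006 over all genes. Tlr6 and Tlr8 each passed the filter through both KO libraries and 1 WT library.

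Tlr13 had 47 and 63 intron reads in KO and 15 and 30 in WT. The lower KO library lay above the higher WT library, with a log2 fold change of 1.47 (SE 0.29, 95% interval 0.79 to 2.15; edgeR adjusted p = 0.0313). It missed the threshold without KO replicate 2 (1.33, adjusted p = 0.105), WT replicate 1 (1.18, 0.186) or WT replicate 2 (1.89, 0.0587), and with DESeq2 (1.48, 0.0761). Tlr4, with 845 and 934 intron reads in KO and 638 and 845 in WT, had the most of the set. As CPM of intron reads this was 125.1 and 122.9 in KO and 87.4 and 94.8 in WT, so that the scaled groups were well apart. Its intron log2 fold change was 0.44 (SE 0.076, 95% interval 0.27 to 0.62; edgeR adjusted p = 0.0163), and it missed the threshold without WT replicate 1 (0.39, adjusted p = 0.197) or WT replicate 2 (0.50, 0.0799).

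The remaining intron values were positive and uncertain. Tlr7 had 55 and 84 intron reads in KO and 43 and 42 in WT, with a log2 fold change of 0.87 (95% interval 0.31 to 1.43; edgeR adjusted p = 0.0924). Its intron value was 1.07 with KO replicate 1 left out and 0.63 with KO replicate 2 left out. It was 1.03 without WT replicate 1 and 0.71 without WT replicate 2. Tlr8 had 20 and 35 reads in KO against 9 and 20 in WT, and a log2 fold change of 1.10 (0.17 to 2.03; adjusted p = 0.184, edgeR). Tlr2 had 25 and 54 in KO against 17 and 41 in WT, so its groups overlapped (0.63, -0.32 to 1.57; adjusted p = 0.456, edgeR). Its intron value was 1.00 without KO replicate 1, 0.066 without KO replicate 2, 0.24 without WT replicate 1 and 1.22 without WT replicate 2. Tlr1 and Tlr6 had intron log2 fold changes of 0.41 and 0.55 (edgeR adjusted p = 0.548 and 0.511). Tlr9 had 5 and 6 intron reads in KO and 8 and 9 in WT, and Cd14 had 3 and 9 against 3 and 2, too few to test. Myd88 had 0 in all 4 libraries and could not be tested either. It had 121 and 139 reads across exon junctions in KO and 97 and 145 in WT. Myd88 lies within the annotated span of Slc22a14, and how reads of overlapping genes were assigned is not stated. The cause of its lack of intron reads was not tested.

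**Figure D3:**
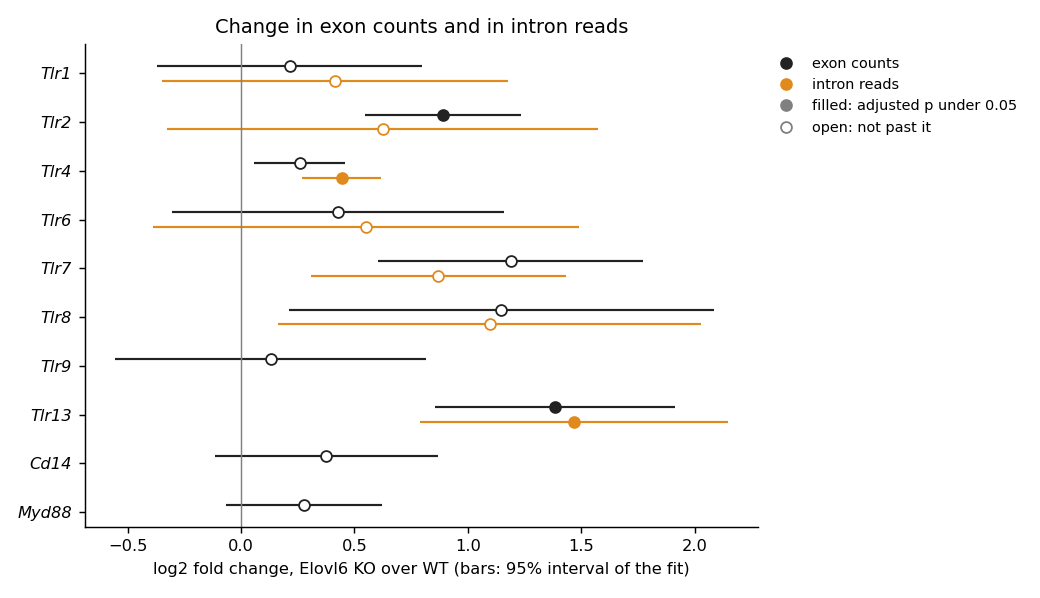
Log2 fold change (Elovl6 KO over WT) of exon counts in black and of intron reads in orange, with 95% intervals of the fit. Filled points passed an adjusted p of 0.05. Tlr13 passed in both readouts, Tlr2 in exons and Tlr4 in introns, and the 2 intervals overlap for each gene tested in both. Tlr9, Cd14 and Myd88 have no intron value.

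Whether exon and intron changes differ was tested in 1 model over both read classes, with the library as a block. None of the 7 genes differed past the threshold in either direction, whereas 1.42% of 10366 genes did. At an unadjusted p under 0.05 none of the 7 differed either. For Tlr4 the exon change minus the intron change was -0.18 (95% interval -0.38 to 0.01; edgeR adjusted p = 0.463), so its call in introns and not in exons is not shown to be a difference. For Tlr2 it was 0.28 (-0.30 to 0.85; adjusted p = 0.765, edgeR). Tlr13 was at -0.08 (-0.67 to 0.50) and Tlr7 at 0.31 (-0.30 to 0.93), with wide intervals.

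The 2 KO libraries were not alike. Each of the 10 genes had a higher CPM in KO replicate 2 than in KO replicate 1, as 51.8% of all genes tested did. The ratio of the pair ran from 1.03 for Tlr4 to 2.01 for Tlr8, and was 1.43 for Tlr13 and 1.30 for Tlr2. In WT, replicate 2 was above replicate 1 in 9 of 10 genes, against 49.7% of all genes tested. The WT ratios ran from 0.81 for Tlr1 to 1.46 for Tlr9. All 10 changes were larger without KO replicate 1 and smaller without KO replicate 2.

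**Figure D4:**
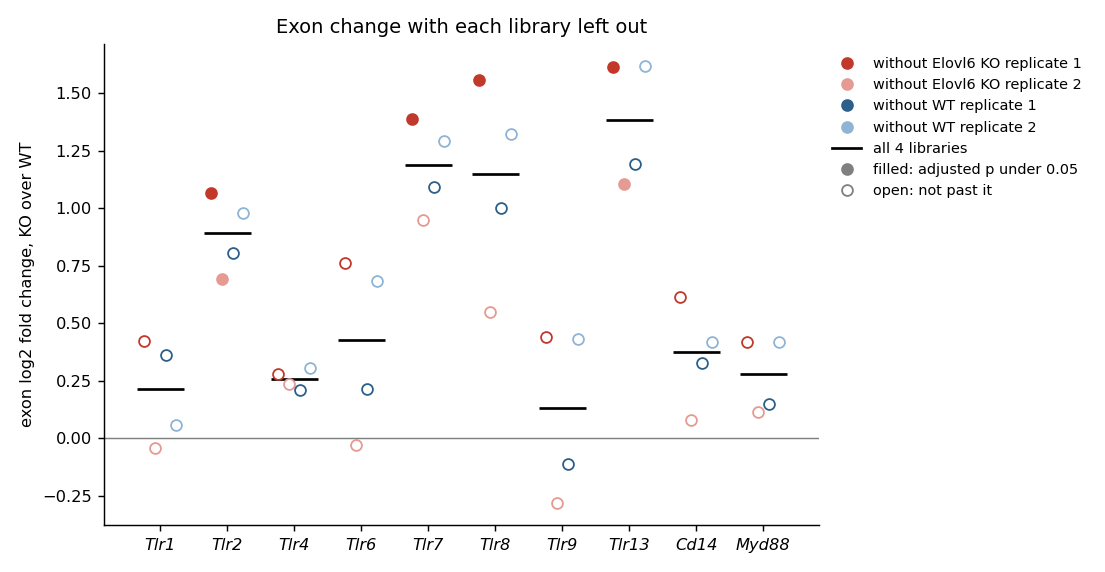
Exon log2 fold change (Elovl6 KO over WT) of each gene with all 4 libraries (black line) and with each library left out in turn (points; filled where the adjusted p was under 0.05). Tlr2 and Tlr13 lost the threshold without either WT library, and Tlr1, Tlr6 and Tlr9 crossed 0. Fits lacking a KO library take their spread from the WT pair. Filled points there do not show that a call holds.

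Monocyte and macrophage markers moved with the receptors. Of 13 tested, Lyz2, Cybb and Lgals3 rose and none fell, beside 1.82% of all genes tested higher and 0.98% lower. Positive log2 fold changes were seen in 12 of 13 (median 0.87), against 49.3% of all genes. At an unadjusted p under 0.05, 12 of 13 were higher and 0 lower, and DESeq2 called 5 higher (Adgre1 and Cd68 added). Over all 11738 genes tested DESeq2 called 484 and limma-voom 222, against 329 in edgeR. The share of all genes under an unadjusted p of 0.05 is not given, here or for the lists below. It exceeds what the cutoff alone would give, as an unadjusted p of 0.0505 had an adjusted p of 0.24 (Itga2b, edgeR). Counts at this cutoff are therefore descriptions and do not show that a list stands out from all genes. The summed level of the monocyte and macrophage markers was 2363 and 3144 CPM in KO and 1576 and 1664 CPM in WT. It was higher in KO replicate 2 than in KO replicate 1, as the receptors were. The part of these cells in the change of the receptors was not tested. Late neutrophil markers summed to 2343 and 933 CPM in KO and 974 and 1474 in WT, with none of 9 past the threshold in edgeR or DESeq2 and 2 higher at an unadjusted p under 0.05, and were highest in KO replicate 1. Eosinophil markers summed to 52.4 and 19.3 CPM in KO and 398.5 and 93.2 in WT, with none of 6 past it in edgeR or DESeq2, 4 lower at an unadjusted p under 0.05, and the highest level in WT replicate 1.

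Markers of the lymphoid and dendritic cells that are known for Tlr7 and Tlr9 were mixed. The B cell marker Ms4a1 and the dendritic cell markers Clec9a, Cd209a and Ccr9 had no counts in any library. The B cell markers summed to 274 and 325 CPM in KO and 263 and 309 CPM in WT, nearly all of it Ighm. None of the 3 tested passed in edgeR, 2 were lower at an unadjusted p under 0.05, and DESeq2 called these 2 lower (Cd79b and Igll1). The 8 dendritic cell markers summed to 26.4 and 36.0 CPM in KO and 20.1 and 44.5 CPM in WT, with none of 3 past the threshold and most of the sum in Flt3, which progenitors also express, and Itgax. Siglech, a marker of plasmacytoid dendritic cells, had 1 and 6 counts in KO and 8 and 24 in WT. Of 8 T and NK cell markers 4 had no counts, and none was testable. Mast cell and basophil markers summed to 13.1 and 26.7 CPM in KO and 26.6 and 25.9 in WT, megakaryocyte markers to 21.7 and 25.02 against 21.7 and 21.4, and stromal and endothelial markers, nearly all Pecam1, to 123 and 155 against 155 and 156. None of these passed in edgeR or DESeq2, and 1 mast cell or basophil marker was lower at an unadjusted p under 0.05. Erythroid markers summed to at most 0.927 CPM in KO and 2.14 in WT. The 6 progenitor markers were lower in KO by a median log2 fold change of -0.26, none of them past the threshold in edgeR or DESeq2 and 4 lower at an unadjusted p under 0.05.

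The rest of the pathway was read from 5 lists. Of the other mouse Toll-like receptors, none had enough counts to test. Tlr3 had 1 and 6 counts in KO and 3 and 10 in WT, Tlr5 had 4 and 8 against 2 and 1, Tlr11 had 5 and 5 against 1 and 0, and Tlr12 had none.

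Accessory and trafficking proteins help the receptors fold, move and bind. Of 14 tested none passed in either direction (edgeR), 7 were higher and 0 lower at an unadjusted p under 0.05, and 11 were positive with a median log2 fold change of 0.37. DESeq2, which called 484 of all 11738 genes, called 3 of the 14 higher (Ctss, Lgmn and Slc15a3), and limma-voom, with 222 over all genes, called 0. The 4 with the smallest p were Ctss, a protease that trims endosomal receptors (1.11, adjusted p = 0.0507), Slc15a3, an endolysosomal peptide transporter (1.26, 0.0797), Pld4, an exonuclease that degrades endosomal nucleic acids (0.69, 0.0959), and Lgmn, another endolysosomal protease (1.24, 0.118). Ctss was at 49.3 and 81.5 CPM in KO and 29.5 and 31.0 in WT, without overlap. Its log2 fold change was 1.43 with KO replicate 1 left out and 0.70 with KO replicate 2 left out. It was 1.08 without WT replicate 1 and 1.14 without WT replicate 2. With KO replicate 2 left out the values of Slc15a3, Pld4 and Lgmn were 0.76, 0.35 and 0.56. They were 1.63, 0.96 and 1.69 with KO replicate 1 left out. Unc93b1, which escorts the endosomal receptors, was named after its values were seen. It stood at 121.4 and 138.0 CPM in KO and 128.5 and 133.3 in WT, a log2 fold change of -0.01. Ly96, the partner that Tlr4 needs to bind lipopolysaccharide and also named after its values were seen, had only 3 and 15 counts in KO and 7 and 12 in WT.

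Of 26 adaptors, kinases and transcription factors, Pik3ap1, an adaptor that links the receptors to PI3K, rose and none fell, with a median log2 fold change of 0.05. The 1 of 26 called is near the share called over all genes tested, 2.8%. At an unadjusted p under 0.05, 4 of the 26 were higher and 0 lower. DESeq2 called Pik3ap1 and also Irf5, a transcription factor downstream of Myd88 (17.9 and 29.9 CPM in KO, 7.94 and 12.6 CPM in WT; log2 fold change 1.21, edgeR adjusted p = 0.0803), and limma-voom called 0. Pik3ap1 had 147.9 and 159.9 CPM in KO and 121.9 and 122.1 in WT (log2 fold change 0.34, SE 0.061; edgeR adjusted p = 0.0441). That call was lost without KO replicate 2 (0.28, adjusted p = 0.0926) or either WT library (0.33 in both fits, 0.379 and 0.267), and with limma-voom (0.33, 0.0553). Of 15 negative regulators Tnip1, which restrains NF-kB signalling together with Tnfaip3, rose and none fell, with a median of 0.20. This 1 of 15 stands beside the same 2.8%. At an unadjusted p under 0.05, 6 were higher and 2 lower, and DESeq2 and limma-voom each called 0. Tnip1 had 83.4 and 88.1 CPM in KO and 66.2 and 66.0 in WT (0.38, SE 0.070; edgeR adjusted p = 0.0467). It lost the call without KO replicate 2 (0.34, adjusted p = 0.109) or either WT library (0.37 in both fits, 0.372 and 0.267), with DESeq2 (0.38, 0.07), with limma-voom (0.38, 0.0513) and with total exon reads (0.38, 0.0505).

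Most genes that these receptors induce had too few counts to test. Of 20 listed, 7 could be tested, with a median log2 fold change of 0.61. Beside 2.8% of all genes tested, 1 of the 7 rose and none fell. Among those tested, Ccl4, named after its values were seen, had 17 and 19 counts in KO and 0 and 5 in WT and passed the filter through the KO libraries alone; the median without it, added after seeing the data, was 0.49. The chemokine gene Ccl3 had 16.6 and 29.3 CPM in KO and 3.77 and 5.11 in WT, a log2 fold change of 2.36 (SE 0.31; edgeR adjusted p = 0.0199). It was 2.16 without WT replicate 1 and 2.60 without WT replicate 2, and missed the threshold in both fits. With KO replicate 1 left out it was 2.71, and with KO replicate 2 left out 1.89. Tnf, named after its values were seen, had 28.7 and 28.9 CPM in KO and 17.2 and 20.4 in WT (0.61, SE 0.12; edgeR adjusted p = 0.0519). Il6 and Il1b had at most 3 counts in a library, and Il10, Il12b, Ifnb1 and Cxcl1 had none. All genes tested had a median log2 fold change of -0.004.

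**Figure D5:**
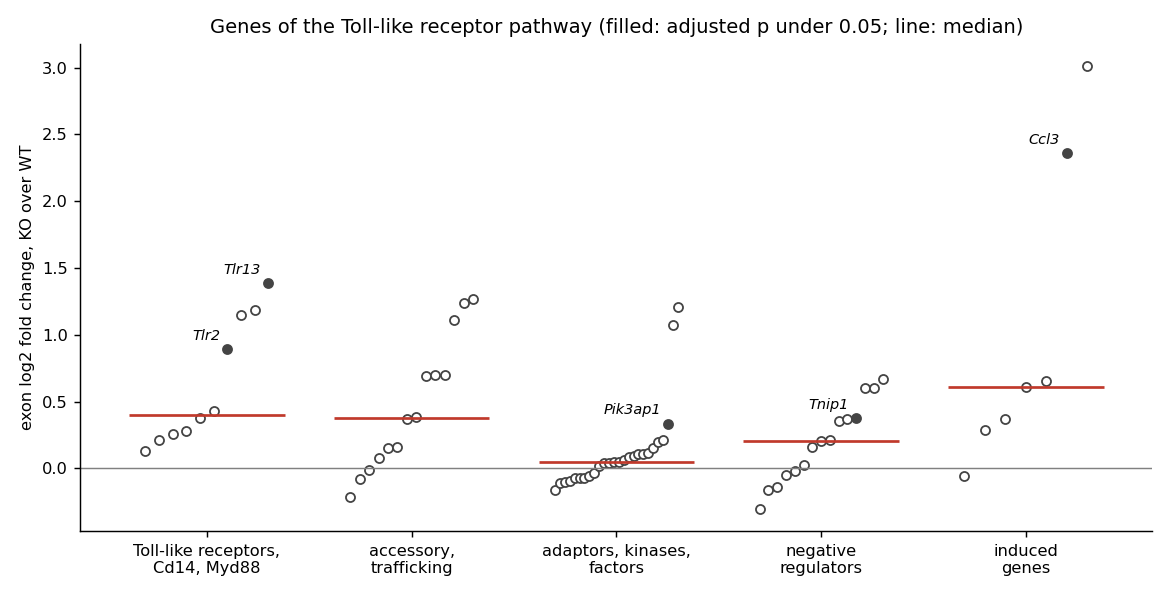
Exon log2 fold change (Elovl6 KO over WT) of the tested genes of the set and of 4 pathway lists, each list sorted from low to high, with its median as a red line. Filled and named points passed an adjusted p of 0.05. The medians were 0.40 for the set, 0.37, 0.05 and 0.20 for accessory, signalling and negative regulator genes, and 0.61 for induced genes, which include Ccl4 as the open point at the top right.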

How the data were processed

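Total RNA from Trizol went into a directional NEBNext library kit, per the labels' protocols. The submitters' processing notes name the build mm10. Which aligner and counter were run, and whether they used strand, is not stated in what was read here. Per gene and library the deposited table gives raw counts in whole numbers: the authors' expression values, used as exon counts, and unique and total exon reads, junction reads and unique intron reads. Its other 88 columns were not used. Gene starts were converted to count from 1, and strand and overlaps came from GENCODE M21.

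Exon counts and intron reads each passed through filterByExpr (count of at least 10, total of at least 15) and TMM scaling. The test was edgeR's quasi-likelihood test (edgeR 4.0.16, R 4.3.3), and p-values were adjusted over all genes tested (Benjamini-Hochberg). The difference of both changes was tested as a genotype by read class term with the library as a block. CPM use TMM-scaled totals of the same reads. With 3 counts as the floor and no molecular identifiers, floors cover counting error only. Replicates differed by more than sampling noise (chi-square per degree of freedom 6.54 in KO and 4.42 in WT). Scripts were tested on simulated data, in which fold changes were recovered close to the values set. With 2 libraries a group, however, more unchanged genes were called than the adjusted threshold should allow. The calls of Tlr13 and Tlr2 share this limit. Alternatives were other scalings, filters and read classes, DESeq2 1.42.0, limma-voom 3.58.1, a replicate block and each library left out, with the genes tested held fixed. Plots used matplotlib 3.10.9 and tables pandas 2.3.3 in Python 3.11.15.

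The 10 genes and all lists were chosen with earlier results of these data known. All 10 genes are named whatever their values. From each list, genes past an adjusted p of 0.05 are named, and otherwise up to 4 with the smallest p. Of 186 listed symbols 185 were in the table used.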

Additional observations from a re-analysis of the deposited data

How the results depend on the processing

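Of 140 exon values of the 10 genes under 14 alternatives, 127 kept their direction and their side of the threshold. Of 91 intron values 81 did, and of 53 values of the exon minus intron difference 47 did. Most of these values belong to genes not called in the main fit. The totals include fits with a single KO library, in which keeping a call does not show that it holds. The number of genes called in exons was 329, and 1677 with no filter on low counts, 875 with the replicate block and 6 to 1405 with a library left out. In introns it was 595, and 1565, 1430 and 173 to 1298 under the same changes. For the difference it was 147, and 46 to 210 with a library left out. Of the 10 genes, 2 were called in exons, 4 with no filter (Tlr7 and Tlr8 added) and 0 to 4 with a library left out. In introns 2 were called, 1 with DESeq2, 4 with no filter and 0 to 3 with a library left out. With a library left out, the exon log2 fold change ran from -0.039 to 0.42 for Tlr1, -0.030 to 0.76 for Tlr6 and -0.28 to 0.44 for Tlr9. The difference ran from -0.24 to 0.63 for Tlr2, -0.28 to 0.097 for Tlr6, -0.29 to 0.25 for Tlr8 and -0.26 to 0.029 for Tlr13. The cause was not tested. Scaling alone did not change a call among the 10 genes.

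Replicate numbers are not stated to pair samples, and the replicate differences of KO and WT correlated weakly (0.09 in exons, 0.04 in introns, across genes). With the number as a replicate block 3 of the 10 genes were called in each readout, Tlr7 being added (adjusted p = 0.0252 in exons and 0.0263 in introns, edgeR). Exon counts a library were lowest for Tlr8 (19 to 63), and at most 103 for Tlr1, Tlr6 and Tlr7.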
